A study of Homo sapiens with 6 samples.

Results

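The 9 genes described here carry the Hedgehog signal from the cell surface to the nucleus. They are the receptors PTCH1 and SMO, the Hedgehog-binding proteins HHIP, BOC, CDON and GAS1, and the transcription factors GLI1, GLI2 and GLI3. They were taken by symbol as a named set, though with earlier results of these data known. All 9 were found among the 57820 genes of the deposited table and among the 17803 genes that passed the filter on low counts. RNA was sequenced in bulk from motor neurons made from the wild-type human embryonic stem cell line H9. Motor neuron progenitors of both groups had been differentiated in neural medium with 0.01 μM RA and 0.1 μM SAG, so the normal gravity cells also received SAG, a small-molecule agonist of SMO. The group labelled NG (normal gravity, 3 libraries) was compared with the group labelled SMG (simulated microgravity, 3 libraries), grown on a 2D clinostat, which keeps turning the cells relative to the direction of gravity. The comparison asks which transcripts differ between the groups. The model has limits: all libraries come from 1 cell line, and because the labels do not say whether they come from separate cultures, the p-values speak for the variation among these libraries alone, part or all of which may be technical. How long the cells spent on the clinostat is not stated.

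In the absence of ligand, PTCH1 holds SMO inactive, and the GLI proteins, GLI3 above all, are cut into repressors in a process that depends on the primary cilium. When a Hedgehog protein binds PTCH1 together with a co-receptor, SMO moves into the cilium and full-length GLI2 and GLI3 activate transcription. GLI1, PTCH1 and HHIP are themselves targets of the pathway and are widely used as its readouts, and PTCH1 and HHIP feed back on it by binding the ligand. In the ventral spinal cord a gradient of Sonic hedgehog sets the progenitor domains, among them the OLIG2-expressing progenitors that give rise to motor neurons. SAG acts on SMO and so bypasses the ligand and its co-receptors.

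Promoter windows are shown because PTCH1 and HHIP are both feedback targets of the pathway that bind the ligand, and they differ in the values that follow: HHIP was lower in SMG and PTCH1 did not pass the test. RefSeq windows (build GRCh38.p14, from 250 bases before to 50 after a gene start, 300 bases each) were found for 7 of the 9 genes, with 15 windows in all because some genes have several starts. The GLI binding motif GACCACCCA, searched on both strands as exact letters and overlapping no other motif searched, was present in 1 of the 15, one of the 5 windows of PTCH1, and in 83 of all 35116 windows (0.236%). It lies at -172 from that start, at chr9:95509430-95509438, and reads TGGGTGGTC on the gene's strand, in capitals. No exact match was present in the single HHIP window, printed in lower case throughout. The counts are per gene and do not say which start was used. A link between the motif and the values of either gene was not tested.
PTCH1 window, chr9:95509217-95509516, minus strand: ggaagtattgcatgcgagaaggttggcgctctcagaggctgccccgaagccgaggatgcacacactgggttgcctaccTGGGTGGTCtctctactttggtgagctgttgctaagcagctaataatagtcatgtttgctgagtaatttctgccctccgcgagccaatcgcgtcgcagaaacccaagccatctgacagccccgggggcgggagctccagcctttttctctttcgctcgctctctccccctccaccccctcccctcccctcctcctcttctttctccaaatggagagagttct
HHIP window, chr4:144645906-144646205, plus strand: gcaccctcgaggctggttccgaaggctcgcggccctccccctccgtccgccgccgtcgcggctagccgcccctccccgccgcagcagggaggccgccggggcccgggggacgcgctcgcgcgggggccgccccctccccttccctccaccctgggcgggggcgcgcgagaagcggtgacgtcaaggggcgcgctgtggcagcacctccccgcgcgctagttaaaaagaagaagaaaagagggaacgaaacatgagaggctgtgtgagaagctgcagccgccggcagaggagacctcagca

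Of the 9 genes, 3 were higher in SMG (BOC, CDON and GLI2), 2 were lower (HHIP and GAS1) and 4 did not pass the test (PTCH1, SMO, GLI1 and GLI3). The largest change was that of HHIP, which fell by 25.2%, followed by CDON, which rose by 18.6%, and BOC, which rose by 16.04%. The median log2 fold change over the 9 was 0.03, where it was -0.00018 over all genes tested. Of all genes tested, 35.8% passed the same test, 17.3% higher and 18.5% lower in SMG, and the groups did not overlap in 46.3% of genes against 6 of these 9. Levels below are CPM, counts divided by the size of the library after TMM scaling (trimmed mean of M-values), as mean ± SD with n = 3 libraries per group. Log2 fold changes are SMG minus NG ± SE, and adjusted p-values come from edgeR's quasi-likelihood test with Benjamini-Hochberg adjustment over all 17803 genes, with a threshold of 0.05.

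**Figure D1:**
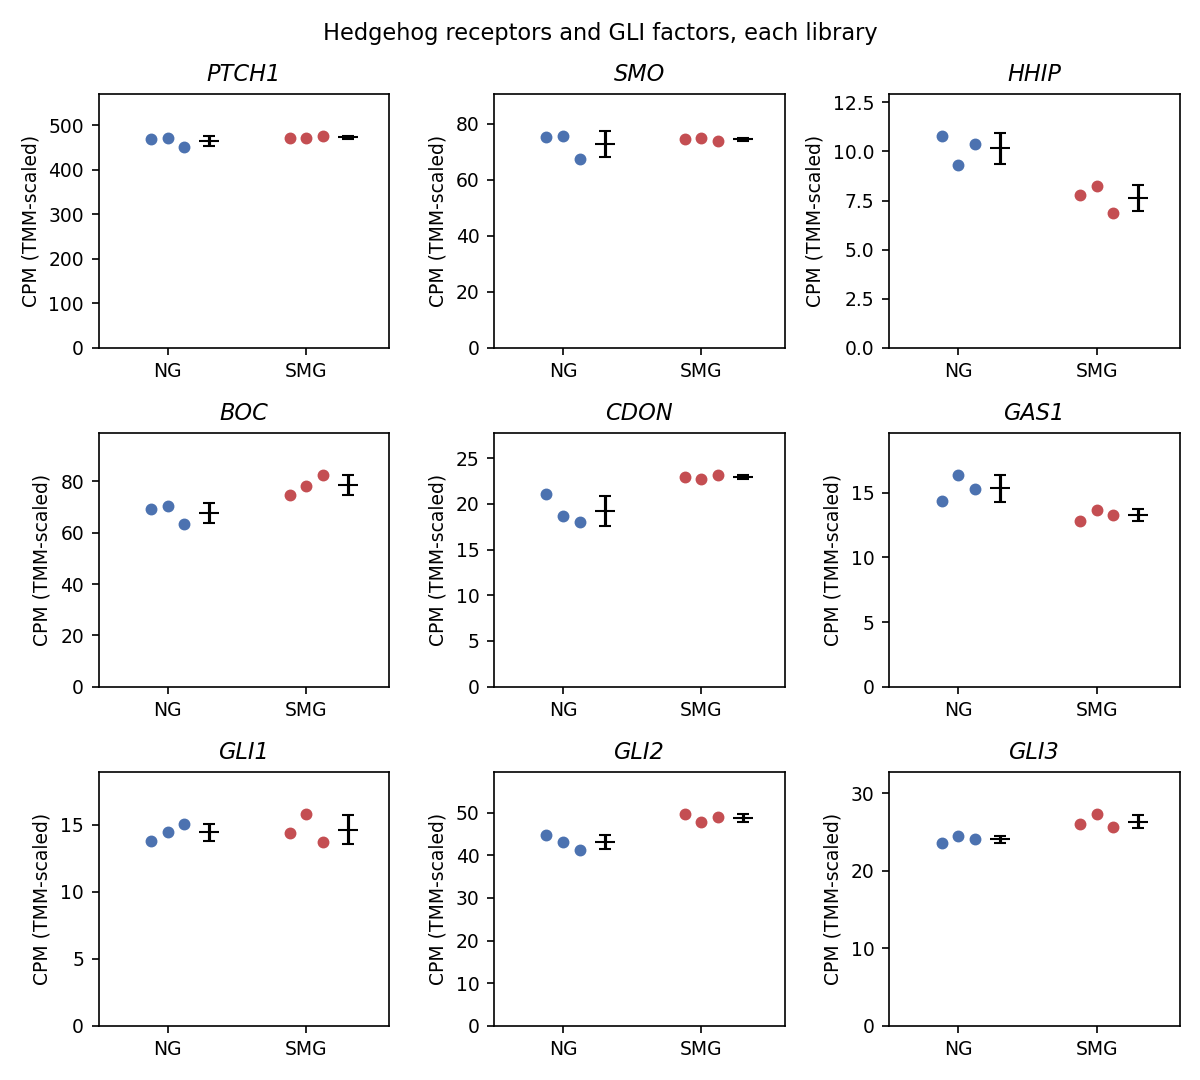
CPM (TMM-scaled, axes starting at 0) of the 9 genes in each library, with NG in blue and SMG in red, and the group mean ± SD in black beside the points. The SMG points of HHIP (6.88 to 8.22 CPM) and GAS1 lie below all NG points, those of BOC, CDON, GLI2 and GLI3 above them, and PTCH1, SMO and GLI1 overlap.

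Neither receptor of the core pair passed the test. PTCH1 (ENSG00000185920), the multipass receptor that binds the ligand and restrains SMO, stood at 469, 471 and 451 CPM in NG and 470, 472 and 476 CPM in SMG. The SMG libraries lie among or just above the upper NG libraries, and NG replicate 3 is the low one. PTCH1 had a log2 fold change of 0.03 ± 0.03 (edgeR adjusted p = 0.545), with a 95% interval of the fold from 0.974 to 1.07.

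SMO (ENSG00000128602), the signal transducer that PTCH1 restrains and SAG binds, was at 75.4, 75.6 and 67.3 CPM in NG and 74.4, 74.9 and 74.0 CPM in SMG. The groups overlapped, with NG replicate 3 again the lowest. Its log2 fold change was 0.03 ± 0.05 (edgeR adjusted p = 0.638), and the interval of the fold ran from 0.958 to 1.09. SMO turned to -0.11 (adjusted p = 0.0277) when a trend of the libraries with transcript length and GC content was removed, so its direction depends on that choice. PTCH1 was at -0.03 with that trend removed, above SMO, so the ratio given next is not free of the trend. The log2 ratio of PTCH1 to SMO within a library, which library scaling cannot move, was 1.17 ± 0.06 (SD) in NG and 1.16 ± 0.02 in SMG per kilobase of transcript. The difference was -0.0076 (two-sided exact permutation test, p = 1, where 3 libraries against 3 allow no p below 0.1).

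HHIP (ENSG00000164161), a membrane-anchored decoy that sequesters Hedgehog ligands, was lower in SMG. The NG libraries had 10.8, 9.30 and 10.4 CPM and the SMG libraries 7.79, 8.22 and 6.88 CPM, from 151 to 229 counts per library. The highest SMG library was below the lowest NG library. For HHIP the log2 fold change was -0.42 ± 0.10 (edgeR adjusted p = 0.00143), with an interval of the fold from 0.650 to 0.861. HHIP passed in 17 of 17 alternative fits, between -0.48 and -0.35. Its exons overlap those of the antisense RNA HHIP-AS1, whose mean was 2.28 ± 0.479 CPM in NG against 2.04 ± 0.156 CPM in SMG (-0.18 ± 0.18, edgeR adjusted p = 0.477). No source used here gives the strand setting of the counting, so reads of an overlap cannot be told apart by gene; PTCH1, SMO, GLI1, BOC and CDON also have such an overlap, and GLI2, GLI3 and GAS1 do not. The log2 ratio of HHIP to PTCH1 per kilobase went from -5.44 ± 0.13 (SD) in NG to -5.88 ± 0.14 in SMG, a ratio chosen after the values were seen and given with no test.

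The 3 co-receptors did not move one way: BOC and CDON were higher in SMG and GAS1 was lower. BOC and CDON are related cell-adhesion proteins with immunoglobulin and fibronectin domains, and GAS1 is an unrelated GPI-anchored protein. All of them bind Sonic hedgehog and act with PTCH1, and in the neural tube the transcripts of all of them are known to be lowered by Hedgehog signalling.

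BOC (ENSG00000144857) was at 69.2, 70.5 and 63.4 CPM in NG and at 74.8, 78.4 and 82.5 CPM in SMG. Every SMG library was above every NG library. BOC had a log2 fold change of 0.21 ± 0.05 (edgeR adjusted p = 6.54e-04), and after removal of the length and GC trend it was 0.11 (adjusted p = 0.0323). BOC shares exon sequence with CFAP44 on the other strand, which had 19.8 ± 1.70 CPM in NG against 20.6 ± 0.876 CPM in SMG and did not pass (0.05 ± 0.07, edgeR adjusted p = 0.623).

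CDON (ENSG00000064309) was at 21.0, 18.7 and 17.98 CPM in NG and at 22.9, 22.7 and 23.2 CPM in SMG. The SMG libraries lie close together and above the NG libraries, of which replicate 1 is the nearest. CDON had a log2 fold change of 0.25 ± 0.07 (edgeR adjusted p = 0.00534), and 0.23 (adjusted p = 0.00669) after removal of the trend. BOC and CDON each passed in 17 of 17 alternative fits.

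GAS1 (ENSG00000180447) was at 14.3, 16.4 and 15.3 CPM in NG and at 12.8, 13.7 and 13.3 CPM in SMG. The groups did not overlap, though NG replicate 1 and SMG replicate 2 are close. The log2 fold change was -0.20 ± 0.08, and the adjusted p of 0.0469 in edgeR's test lies just under the threshold. The call is not firm: GAS1 passed in 7 of 17 alternative fits, with adjusted p from 0.00505 to 0.184 and a negative value in all of them. DESeq2 gave an adjusted p of 0.134, and the call also ended without any one of NG replicate 2 (-0.16, adjusted p = 0.184), NG replicate 3 (0.0642), SMG replicate 1 (0.141), SMG replicate 2 (0.063) or SMG replicate 3 (0.098).

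Per kilobase of longest transcript, BOC made up 61.0% ± 1.06 (SD, n = 3) of the summed level of the 3 co-receptors in NG and 65.5% ± 0.860 in SMG. The share of GAS1 was 26.1%, 28.8% and 29.4% in the NG libraries and 22.6%, 23.1% and 21.8% in the SMG libraries. CDON held 10.9% ± 0.866 and 12.03% ± 0.418. The groups do not overlap for BOC and GAS1 and overlap for CDON. With the median transcript length of each gene instead, BOC held 85.4% in NG and 86.2% in SMG and GAS1 4.82% and 3.62%. The sizes of the shares thus depend on the length used, and with the median length the BOC shares overlap between the groups (85.2% to 85.9% in NG, 85.8% to 86.7% in SMG).

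**Figure D2:**
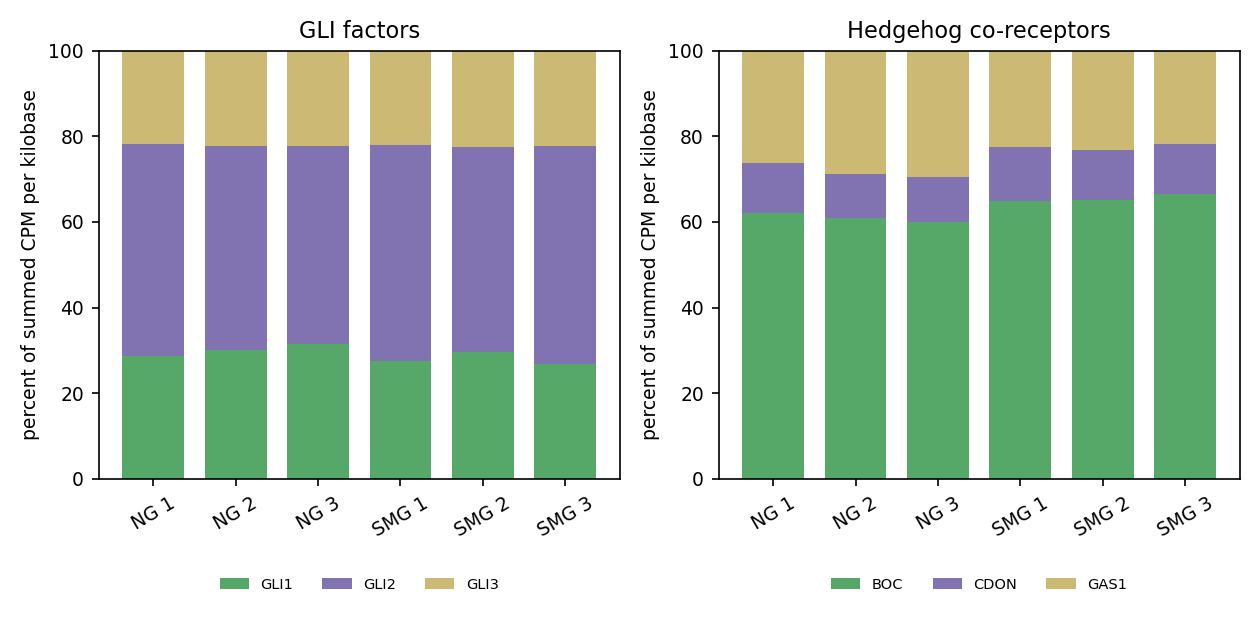
Share of each gene in the summed CPM per kilobase of longest transcript of its family, in percent, 1 bar per library, for GLI1, GLI2 and GLI3 (left) and for BOC, CDON and GAS1 (right). GAS1 takes 26.1% to 29.4% of the co-receptor sum in NG and 21.8% to 23.1% in SMG, while GLI3 stays between 21.7% and 22.6% of the GLI sum in all libraries.

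Among the GLI factors, the readout gene GLI1 did not pass, GLI2 was higher in the TMM-scaled fit, and GLI3 did not pass. GLI1 (ENSG00000111087), an activator with no repressor form whose transcription is switched on by the pathway, was at 13.8, 14.5 and 15.1 CPM in NG and 14.4, 15.8 and 13.7 CPM in SMG. The lowest and the highest of the 6 libraries are both SMG. The log2 fold change was 0.02 ± 0.08 (edgeR adjusted p = 0.861), and the 95% interval of the fold ran from 0.906 to 1.14. ARHGAP9, which overlaps GLI1 on the other strand, rose from 2.24 ± 0.414 to 3.07 ± 0.346 CPM (0.47 ± 0.17, edgeR adjusted p = 0.0298).

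GLI2 (ENSG00000074047), the main activator of the first response to Hedgehog, was at 44.7, 43.2 and 41.3 CPM in NG and 49.8, 47.8 and 48.9 CPM in SMG. Every SMG library was above every NG library. The log2 fold change was 0.18 ± 0.05 (edgeR adjusted p = 0.0060). Removal of the trend with length and GC content took it to -0.00079 (adjusted p = 0.993); the trend at the length and GC content of GLI2 was 0.18, the largest among the 9 genes. The rise of GLI2 was of the size of the trend at its length and base composition.

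GLI3 (ENSG00000106571), the main source of GLI repressor, was at 23.6, 24.5 and 24.1 CPM in NG and 26.1, 27.3 and 25.7 CPM in SMG. The groups did not overlap, but the gene did not pass (0.13 ± 0.06, edgeR adjusted p = 0.0850). With scaling by library size alone it passed (0.15, adjusted p = 0.0465), and after removal of the trend it was at 0.07 (adjusted p = 0.407).

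Ratios within a library, which do not depend on library scaling, were tested for GLI1 and GLI2 against GLI3. They were not corrected for the length and GC trend, which differs between genes. With that trend removed, the log2 fold changes were -0.08 for GLI1, -0.00079 for GLI2 and 0.07 for GLI3, so GLI2 then lay below GLI3. The log2 ratio of GLI1 to GLI3 per kilobase was 0.40, 0.42 and 0.50 in the NG libraries, and in the SMG libraries it was 0.32, 0.39 and 0.28. All SMG values lay below the NG values, with a difference of -0.11 (two-sided exact permutation p = 0.1, the smallest the design allows, and 0.3 after Benjamini-Hochberg adjustment over 3 ratios). The ratio of GLI2 to GLI3 was 1.11 ± 0.07 (SD) in NG and 1.16 ± 0.07 in SMG, and these overlapped (difference 0.05, exact permutation p = 0.5, adjusted 0.75). The longest transcript gave the length in these ratios. On that scale GLI2 made up 47.8% ± 1.75 (SD, n = 3) of the summed GLI level in NG and 49.8% ± 1.78 in SMG. GLI1 held 30.1% ± 1.45 and 28.0% ± 1.48, and GLI3 22.1% ± 0.375 and 22.2% ± 0.335. With the median transcript length instead, GLI3 held 56.9% in NG and 56.8% in SMG, GLI2 31.9% and 32.9%, and GLI1 11.2% and 10.3%. Which GLI gene leads, and the level of each ratio, thus depend on the length used. The difference of a ratio between the groups does not. With either length the shares of each GLI gene overlap between the groups.

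**Figure D3:**
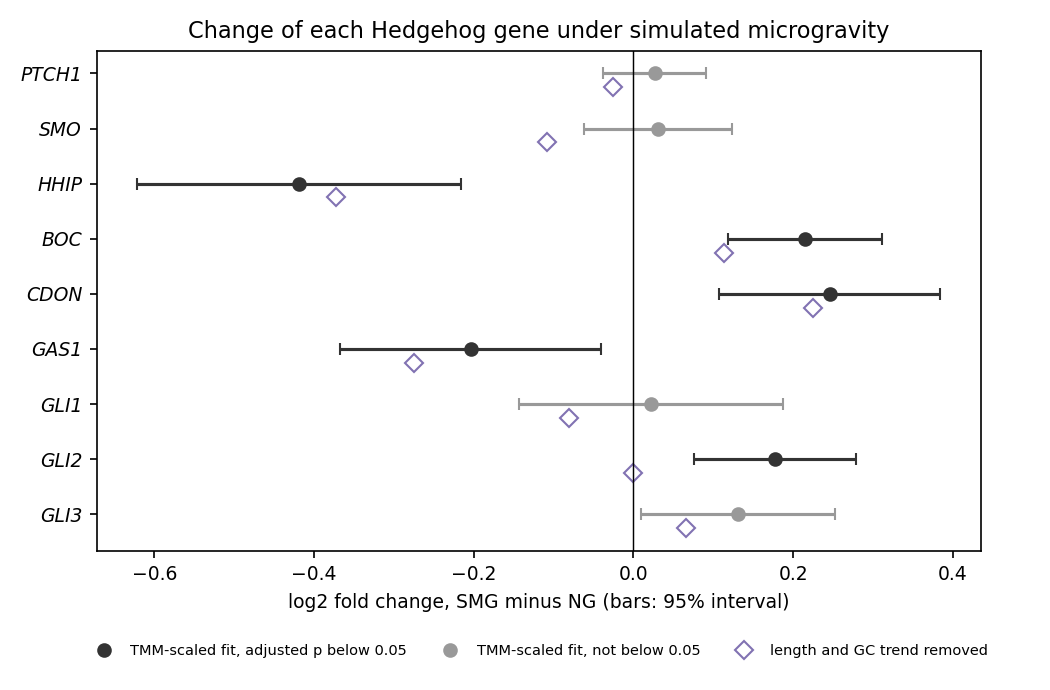
Log2 fold change (SMG minus NG) of each gene with its 95% interval from edgeR's quasi-likelihood fit (filled circles, dark where the adjusted p is below 0.05), and the value after removal of each library's trend with transcript length and GC content (open diamonds). HHIP, BOC, CDON and GAS1 keep their side of 0 in both, GLI2 moves from 0.18 to -0.00079 and SMO from 0.03 to -0.11.

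On the scale of CPM per kilobase of longest transcript, the order of levels in NG was PTCH1 (43.6 ± 1.04), SMO (19.5 ± 1.27), BOC (11.8 ± 0.656), GLI2 (6.34 ± 0.252), GAS1 (5.43 ± 0.363), GLI1 (3.99 ± 0.179), GLI3 (2.93 ± 0.0546), CDON (2.10 ± 0.175) and HHIP (1.01 ± 0.0764), all SD with n = 3. The order was the same in SMG. Of the 8 pairs of neighbours in the order, 0 overlapped between libraries in either group. The order rests on transcript length, since with the median transcript length PTCH1 alone kept its place.

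GLI1 and PTCH1 were also set against every other gene with a symbol and a mean of at least 10 CPM (10204 genes), by the Pearson correlation of log2 CPM over the 6 libraries, given as a description. The profiles most like GLI1 were those of GORAB (r = 0.956), GDPD1 (0.945) and SLC35A3 (0.939). Those most like PTCH1 were PPM1F (0.991), DNAAF5 (0.989) and PLEKHJ1 (0.989). None of these 6 genes passed the test between SMG and NG, and the genes most like PTCH1 share its low value in NG replicate 3, where PPM1F was at 38.6 CPM against 43.8 to 47.6 CPM in the other libraries. Both largely follow from picking the genes by likeness over the same 6 libraries, and neither is a separate result.

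The rest of the pathway was read from lists by role. Over all the lists, 102 genes were tested, each counted once, of which 23 rose (22.5%, against 17.3% of all genes tested) and 26 fell (25.5%, against 18.5%), with a median log2 fold change of -0.05 against -0.00018 over all genes tested. The count of lower genes was 17 by DESeq2 and 16 without SMG replicate 2 or 17 without SMG replicate 3. Ligand transcripts were scarce. SHH, the ligand of the floor plate, had 7 to 16 counts per library (0.650 ± 0.218 CPM in NG and 0.617 ± 0.0730 in SMG), and IHH and DHH were too low to test. Of the 7 tested genes for ligands and their release, 3 rose (42.9%) and 1 fell (14.3%), with a median of 0.07. DISP2, a relative of the exporter DISP1, rose from 17.1 ± 1.003 to 24.2 ± 0.542 CPM (0.51 ± 0.07, edgeR adjusted p = 8.64e-07), and the secreted release factor SCUBE3 rose from 73.1 ± 1.59 to 93.6 ± 3.75 CPM (0.36 ± 0.04). HHAT, the acyltransferase that lipid-modifies Hedgehog proteins, fell from 11.1 ± 0.931 to 9.26 ± 0.441 CPM (-0.25 ± 0.09, edgeR adjusted p = 0.0339), a call that DESeq2 (adjusted p = 0.111), library size scaling (0.0529), no filter (0.0741) and the fits without NG replicate 2 (0.157), SMG replicate 2 (0.0810) or SMG replicate 3 (0.120) did not give.

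Of the other receptors and co-receptors, 1 of 5 rose (GPC4) and 3 fell (GPC6, GPC3 and LRP2), and their median was -0.12. These are 20% higher and 60% lower, against 17.3% and 18.5% of all genes tested. GPC6, a glypican, fell from 110 ± 2.04 to 79.5 ± 1.90 CPM (-0.47 ± 0.04, edgeR adjusted p = 1.57e-10). GPC3, the glypican that competes with PTCH1 for ligand, fell from 91.4 ± 0.937 to 82.2 ± 4.45 CPM (-0.15 ± 0.04), a call lost without SMG replicate 3 (-0.11, adjusted p = 0.0739). GPC4 rose by a small amount (0.12 ± 0.04), a call lost without NG replicate 1 (adjusted p = 0.0984), SMG replicate 1 (0.0677) or SMG replicate 2 (0.115). The endocytic receptor LRP2, named after its values were seen, fell by a small amount (-0.12 ± 0.04, edgeR adjusted p = 0.0289), a call lost by DESeq2 (adjusted p = 0.0845), with library size scaling (0.0777) or no filter (0.0772) and without NG replicate 1 (0.104), NG replicate 2 (0.0666), SMG replicate 1 (0.0863) or SMG replicate 2 (0.180).

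Among genes whose products act on GLI proteins in the cytoplasm and at the cilium base, 12 of 24 tested were higher (50%, against 17.3% of all genes) and 2 were lower (8.33%, against 18.5%), with a median log2 fold change of 0.12. After removal of the length and GC trend 8 were higher (33.3%, against 16% of all genes) and 2 were lower, and the median was 0.08. MGRN1, a ubiquitin ligase, rose from 83.3 ± 6.64 to 108 ± 3.78 CPM (0.38 ± 0.05, or 0.19 without the trend). SUFU, which binds and restrains GLI proteins, rose from 40.7 ± 0.969 to 47.2 ± 1.27 CPM (0.21 ± 0.05, edgeR adjusted p = 0.00133), and the ciliary tip kinesin KIF7 rose from 14.3 ± 0.803 to 18.2 ± 1.41 CPM (0.34 ± 0.08, edgeR adjusted p = 0.00109). Neither SUFU (0.10, adjusted p = 0.0860) nor KIF7 (0.15, adjusted p = 0.116) passed once the trend was removed. ZIC2, a zinc finger protein related to the GLI factors, fell from 4.18 ± 0.168 to 2.58 ± 0.0427 CPM (-0.70 ± 0.14).

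Among ciliary transport and transition zone genes, on which GLI processing depends, 15 of 45 tested were lower (33.3%, against 18.5% of all genes) and 5 were higher (11.1%, against 17.3%), with a median of -0.09. After removal of the trend 8 were lower (17.8%), a share near the 15.3% of all genes in that fit, and 6 were higher. The lower count was 9 by DESeq2, with library size scaling and with no filter, 8 without SMG replicate 2 and 9 without SMG replicate 3. The higher count was 3 by DESeq2 and without NG replicate 1, SMG replicate 1 or SMG replicate 2. DYNC2LI1, a light intermediate chain of the retrograde ciliary motor, fell from 29.3 ± 1.80 to 22.6 ± 1.56 CPM (-0.37 ± 0.06, or -0.24 without the trend). BBS1, of the complex that moves membrane proteins out of cilia and overlapping another gene on its own strand, rose from 2.11 ± 0.282 to 2.93 ± 0.421 CPM (0.47 ± 0.17, edgeR adjusted p = 0.0345), but not by DESeq2 (adjusted p = 0.134), limma-voom (0.0534) or with the trend removed (0.0746), nor without NG replicate 1 (0.0639), NG replicate 2 (0.134), SMG replicate 1 (0.104) or SMG replicate 2 (0.141). NPHP4, of the transition zone, rose from 28.0 ± 2.31 to 35.1 ± 1.06 CPM (0.32 ± 0.06, or 0.17 without the trend).

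**Figure D4:**
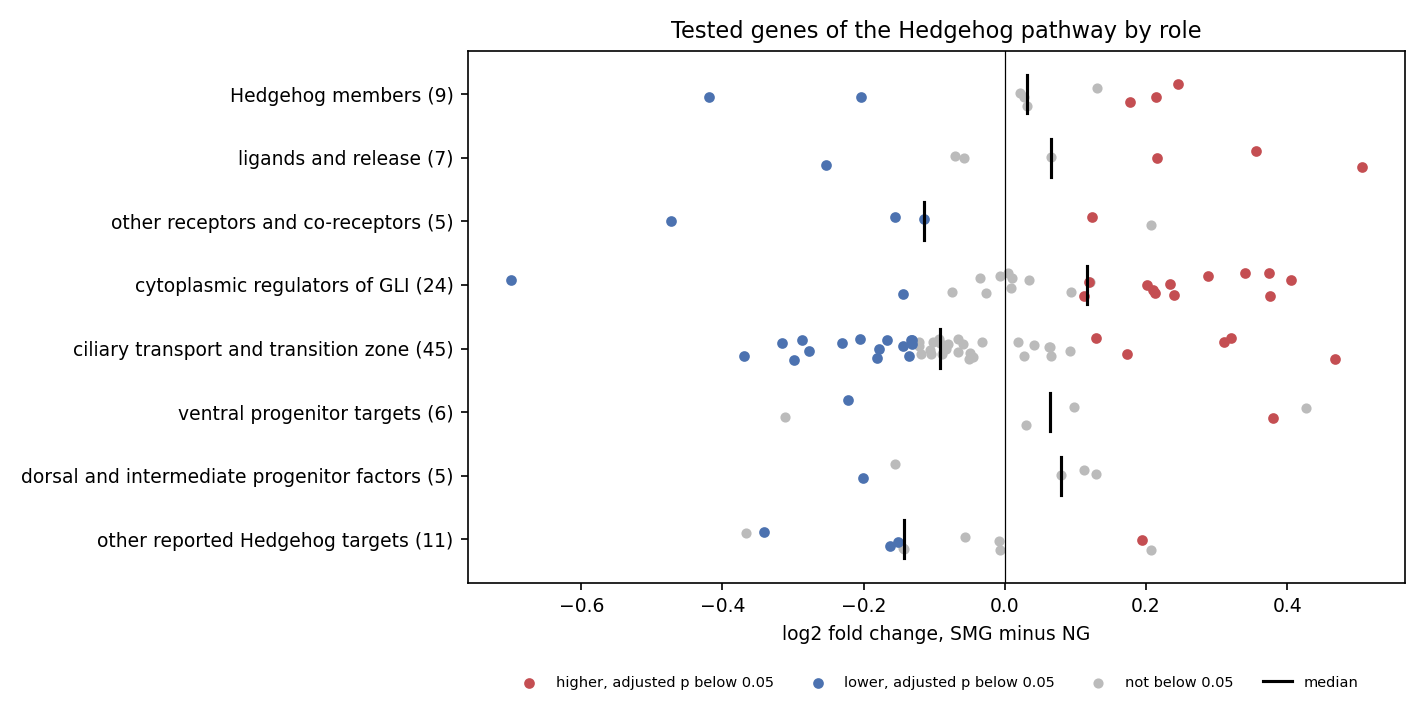
Log2 fold change (SMG minus NG) of every tested gene of the 9 Hedgehog genes and of 7 pathway lists (number tested in brackets), red where higher and blue where lower with an adjusted p below 0.05, grey otherwise, and the list's median as a black line. Cytoplasmic regulators of GLI lie mostly right of 0 (12 higher, 2 lower) and ciliary genes mostly left of it (15 lower, 5 higher).

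Transcription factors that the gradient switches on in ventral progenitors did not move together, with 1 higher and 1 lower of 6 tested and a median of 0.06. That is 16.7% in each direction, near the 17.3% higher and 18.5% lower of all genes tested. OLIG2, the factor of motor neuron progenitors, fell from 113 ± 6.96 to 97.2 ± 3.42 CPM (-0.22 ± 0.04, edgeR adjusted p = 1.55e-04), whereas NKX6-1 (114 ± 7.13 against 122 ± 4.66 CPM), OLIG1 (101 ± 9.45 against 103 ± 5.74 CPM), NKX6-2 (1.96 ± 0.450 against 1.58 ± 0.181 CPM) and NKX2-8 (1.01 ± 0.160 against 1.37 ± 0.143 CPM) did not pass. NKX6-1 passed as higher without NG replicate 2 (0.14, adjusted p = 0.0168) or SMG replicate 1 (0.13, adjusted p = 0.0448) and with library size scaling (0.12, adjusted p = 0.0326) or no filter (0.11, adjusted p = 0.0407). OLIG1 turned from 0.03 to -0.11 (adjusted p = 0.0241) once the trend was removed. NKX2-2, the factor of the most ventral neuronal progenitors, rose from 2.94 ± 0.280 to 3.86 ± 0.143 CPM (0.38 ± 0.14, edgeR adjusted p = 0.0359), a call that ended by DESeq2 (adjusted p = 0.149), with no filter (0.0689), with the trend removed (0.0710) and without any one library other than NG replicate 1. FOXA2, of the floor plate, had almost no counts (0.0362 ± 0.0322 CPM in NG and 0.0307 ± 0.0266 in SMG).

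Of the factors of dorsal and intermediate progenitors, which Hedgehog signalling represses, 0 of 5 tested rose (1 without NG replicate 2) and 1 fell, with a median of 0.08. The lower share was 20%, near the 18.5% of all genes tested. The lower factor was PAX6, from 49.6 ± 0.751 to 43.2 ± 2.11 CPM (-0.20 ± 0.05, edgeR adjusted p = 0.00242). Of 11 tested genes reported elsewhere as Hedgehog targets, 1 rose and 3 fell, with a median of -0.14 (2 rose without NG replicate 2). These are 9.09% higher and 27.3% lower, against 17.3% and 18.5% of all genes tested. The cyclins CCND2 (104 ± 1.54 to 81.8 ± 2.49 CPM, -0.34 ± 0.04) and CCND1 (116 ± 1.85 to 104 ± 4.12 CPM, -0.16 ± 0.04) fell, and the cell cycle factor FOXM1 rose from 37.2 ± 0.864 to 42.5 ± 1.40 CPM (0.19 ± 0.05), a call lost with the trend removed and the replicate number as a block (0.13, adjusted p = 0.0557).

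The libraries held 16329907 to 22685870 counts. Markers of both motor neurons and their progenitors were present, and in bulk RNA fewer cells of a type and less RNA per cell cannot be told apart. The marker counts below stand beside the shares over all genes tested, of which 17.3% rose and 18.5% fell. Of 9 tested motor neuron markers 6 rose (66.7%) and 0 fell, with a summed level of 690 to 723 CPM in NG and 817 to 844 CPM in SMG. Of 10 neural progenitor markers 1 rose (10%) and 3 fell (30%), with sums of 3733 to 3944 CPM against 3765 to 3890 CPM. Of 5 motor neuron progenitor markers 0 rose and 2 fell (40%), with sums of 392 to 432 CPM against 383 to 405 CPM. Of 8 markers of cycling cells 0 rose and 5 fell (62.5%), with sums of 1251 to 1298 CPM against 1050 to 1070 CPM. With the length and GC trend removed, 4 motor neuron markers were higher, and 0 neural progenitor markers were higher and 4 lower. In that fit 3 motor neuron progenitor markers and 7 cycling markers were lower, where 16% of all genes were higher and 15.3% lower. Several of the Hedgehog genes are expressed in spinal cord progenitors, and the part of these shifts in the values of the set was not tested. Of 3 tested floor plate markers 0 passed by edgeR; their sum of 129 to 139 CPM in NG and 134 to 139 CPM in SMG was nearly all NTN1, with FERD3L at 0 in all libraries. NTN1 turned from 0.06 to -0.13 (adjusted p = 0.0022) with the trend removed. Of the astrocyte markers 0 of 2 tested rose and 1 fell (264 to 276 CPM in NG against 244 to 261 CPM in SMG), the sum being nearly all SLC1A2 and SLC1A3, with GFAP and AQP4 near 0. SOX10, a marker of the oligodendrocyte lineage and of neural crest, was near 0. Of 2 tested pluripotency markers 1 fell, LIN28A (56.2 ± 1.61 CPM in NG against 49.95 ± 4.01 CPM in SMG). The other, DPPA4, did not pass (29.7 ± 1.62 against 28.3 ± 1.13 CPM, edgeR adjusted p = 0.401). The sum of that list (83.5 to 89.5 CPM against 74.2 to 81.1 CPM) was nearly all LIN28A and DPPA4, with POU5F1 and NANOG near 0. Of 5 tested V2 and V3 interneuron markers 2 rose (34.3 to 40.1 CPM against 36.6 to 39.5 CPM), and of 4 dorsal, V0 and V1 markers 2 rose (3.90 to 5.91 CPM against 5.48 to 6.57 CPM). Sums were at most a few CPM for mesenchyme (4.74 to 4.90 CPM against 3.16 to 4.42 CPM, 1 of 3 tested fell), muscle (3.49 to 4.19 CPM against 5.24 to 5.30 CPM, 1 of 1 rose), endothelium (2.17 to 2.77 CPM against 1.75 to 2.17 CPM, 1 of 3 fell) and microglia (0.366 to 0.739 CPM against 0.614 to 0.876 CPM, 0 of 1 passed, AIF1 at 0).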

How the data were processed

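The authors deposited raw integer counts for each Ensembl gene in each of the 6 libraries. Per the submitters' processing notes, the tools were HISAT2, SAMtools, featureCounts and DESeq2 with build hg19. No source used here gives versions, annotation, strand setting or the handling of multi-mapping reads. The members and gene lists were chosen with earlier results of these data known. Symbols came from a table of gene names, then from GENCODE 29, which also gave transcript lengths, GC content and exon overlaps. GENCODE 29 uses another build than hg19, so no gene coordinates from it are given. The only coordinates given are those of the promoter windows and the motif, in build GRCh38.p14. Genes were filtered with filterByExpr, which left 17803, scaled by TMM and tested with edgeR 4.0.16 (glmQLFit, robust, and glmQLFTest; R 4.3.3) across all genes. CPM were computed from the counts with TMM-scaled library sizes; libraries held 16329907 to 22685870 counts before scaling. Alternatives were DESeq2 1.42.0, limma 3.58.1 voom, other scalings and filters, no robust estimation, a replicate block, natural spline offsets (4 degrees of freedom each) for transcript length and GC content, and each library left out. The biological coefficient of variation was 0.0346. On simulated counts of this comparison (17566 genes) edgeR called 54% of the genes given a 1.2-fold change, 98% at 1.5-fold and 100% at 2-fold, and made 8 false calls. Only a small set of well-counted genes was changed there, with the same dispersion for all genes. The rates may thus differ in the real data, where 35.8% of genes passed. Named were the 9 members, SUFU, KIF7, SHH, ventral factors with a count, up to 3 passing genes per other list with at least 2 CPM, and the 3 profiles most like GLI1 and PTCH1; some genes under this rule are not reported here. A planned comparison of GLI protein sequences was not made, and no protein sequence was used here. Within a group, no pair of libraries looked like 1 library deposited again (chi-square over degrees of freedom from 1.6 to 3.38).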

Additional observations from a re-analysis of the deposited data

How the results depend on the processing

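HHIP, BOC and CDON passed in the same direction in 17 of 17 alternative fits, and PTCH1 and GLI1 passed in 0. The count of lower members went from 2 to 1, by the loss of GAS1, with DESeq2, upper quartile scaling, library size scaling, no filter and no robust estimation, and was 1 to 2 with a library left out. With the length and GC trend removed, with or without the replicate block, 3 members were lower, SMO being added. In those fits 2 members were higher, GLI2 being lost. Lower genes over the pathway lists, 26 as reported, were 17 with DESeq2, 17 with library size scaling, 17 with no filter and 16 to 25 with a library left out. With length and GC trend removed, SMO was at -0.11, GLI2 at -0.00079 and OLIG1 at -0.11, and with the replicate block added SMO was at -0.11 and OLIG1 at -0.11; the cause was not tested. The log2 ratio of PTCH1 to SMO differed between the groups by -0.026 to 0.028 with a library left out, positive (0.028) without NG replicate 3 alone. With the median transcript length 1 of 9 members kept its place in the order of levels. Same-numbered libraries correlated at -0.059 to 0.044 in their deviations from the group means, and the other pairs at -0.134 to 0.152. No pairing by number was seen, but a small shared effect could be missed, and the labels do not state one. The replicate block gave 3077 higher and 3256 lower genes against 3080 and 3296. At 151 to 229 counts per library, the log2 fold change of HHIP has an SE of 0.10, against 0.03 for PTCH1 at 7403 to 10872 counts, so small changes are less well resolved in the low genes.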
